A study of Mus musculus with 10 samples.

Results

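The 10 genes described here encode the 5 subunits of the transcription factor NF-kB (Nfkb1, Nfkb2, Rel, Rela and Relb) and 5 of the factors that NF-kB induces against or around itself (Nfkbia, Nfkbid, Nfkbie, Tnfaip3 and Traf1). They are taken by name, without a threshold on any value. Each name was found in 1 row of the expression table, which lists 57825 genes, and all 10 had a mean above 0.5 FPKM, the level below which genes were not tested (15710 genes were).

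NF-kB is a family of dimeric transcription factors. In the canonical arm, T cell receptor and cytokine receptor signals lead to the destruction of IkB proteins, which release dimers of RelA, c-Rel and p50 into the nucleus. In the non-canonical arm, receptors of the TNF family drive the processing of p100, the product of Nfkb2, to p52, the partner of RelB. Several inhibitors and subunits are themselves transcribed by NF-kB, so that the pathway limits its own signal. In CD8+ T cells it is known for its part in activation, survival and cytokine production.

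CD8+ T cells, cytotoxic lymphocytes from mouse spleen, were sequenced after they shared a culture with 4T1, a cell line of mouse mammary carcinoma, to ask what acetate changes in them. According to the methods, T cells of female Balb/c mice (7 to 8 weeks old) were isolated with magnetic beads, activated on plate-bound anti-CD3 with anti-CD28 and IL-2 for 12 h, kept with or without sodium acetate (NaAc) for 24 h and co-cultured for 48 h. The labels give day 3 for every sample. The group CD8+4T1 (5 samples) had no acetate and the group CD8+4T1+NaAc (5 samples) had 5 mM NaAc; activation and tumor cells are common to both, and no samples without tumor cells were analysed here. The sources used here do not say whether CD8+4T1 received another sodium salt, so acetate and the added sodium cannot be told apart. RNA came from bulk samples of purified CD8+ T cells, so fewer cells of a type and less RNA per cell cannot be told apart. Nothing says that the samples of a group came from separate animals or cultures, and p-values measure the spread between these samples, which may be technical.

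The promoters of 4 members are shown first, because these genes span the outcomes of the comparison: Nfkb2 and Rela fell, Tnfaip3 rose and Nfkbia was not called. Each window runs 5′ to 3′ on the gene's strand from 250 bases before to 50 bases after a RefSeq start site (build GRCm38.p6): chr19:46304487-46304786 on the forward strand, chr19:5637291-5637590 on the forward strand, chr12:55492598-55492897 on the reverse strand and chr10:19015361-19015660 on the reverse strand. Capitals mark matches to the kappaB consensus, the binding motif of NF-kB, searched on both strands as 3 G, 1 purine, 2 bases of any kind, 2 pyrimidines and 2 C, with overlapping matches joined.
Nfkb2: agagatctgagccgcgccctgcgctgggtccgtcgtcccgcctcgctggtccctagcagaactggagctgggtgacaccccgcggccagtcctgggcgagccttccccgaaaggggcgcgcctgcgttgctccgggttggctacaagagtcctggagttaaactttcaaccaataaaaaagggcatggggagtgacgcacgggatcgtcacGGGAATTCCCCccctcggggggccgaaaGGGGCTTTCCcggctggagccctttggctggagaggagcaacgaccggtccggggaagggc
Rela: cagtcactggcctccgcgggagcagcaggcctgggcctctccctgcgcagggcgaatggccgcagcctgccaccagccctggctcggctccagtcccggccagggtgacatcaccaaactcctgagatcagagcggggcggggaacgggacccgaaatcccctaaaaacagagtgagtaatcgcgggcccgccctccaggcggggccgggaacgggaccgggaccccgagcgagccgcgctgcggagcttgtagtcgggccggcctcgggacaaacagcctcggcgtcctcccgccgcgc
Nfkbia: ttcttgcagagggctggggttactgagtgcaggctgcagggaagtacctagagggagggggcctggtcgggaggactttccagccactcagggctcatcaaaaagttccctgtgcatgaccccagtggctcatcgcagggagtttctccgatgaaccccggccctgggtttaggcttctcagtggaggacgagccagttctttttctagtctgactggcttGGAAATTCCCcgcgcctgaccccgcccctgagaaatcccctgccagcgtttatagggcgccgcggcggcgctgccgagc
Tnfaip3: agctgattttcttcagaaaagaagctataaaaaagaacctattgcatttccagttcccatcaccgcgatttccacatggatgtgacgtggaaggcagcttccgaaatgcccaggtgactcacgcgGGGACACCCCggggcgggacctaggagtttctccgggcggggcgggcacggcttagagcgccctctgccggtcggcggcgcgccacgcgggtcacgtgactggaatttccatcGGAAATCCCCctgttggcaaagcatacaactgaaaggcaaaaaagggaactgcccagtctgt

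In Nfkb2 the matches GGGAATTCCCC and GGGGCTTTCC begin 39 and 11 bases before the start site. In Tnfaip3 they are GGGACACCCC and GGAAATCCCC, which begin 125 and 12 bases before it. Nfkbia has 1 match, GGAAATTCCC, beginning 29 bases before the start site, and the Rela window has none. RefSeq windows were found for 8 of the 10 members (13 windows, as some genes have several start sites), all but Nfkb1 and Relb. Further matches lie in the windows of Rel (GGGAAATCCCC) and Nfkbie (GGGGGATTCC), in 1 window of Nfkbid (GGGACTTCCC and GGAATTCCCC) and in the other 2 windows of Nfkb2. The Traf1 window, the second window of Tnfaip3 and the other 2 windows of Nfkbid hold none. A match was present in 8 of the 13 windows (61.5%), against 2779 of 32851 windows of all genes (8.46%), and 2 or more matches were present in 30.8% against 0.521%. The other 2 windows of Nfkb2 overlap and share 1 site, which counts in both; by gene, 6 of the 8 members had a match, against 2581 of 27025 genes (9.55%). The members were chosen in part as genes that NF-kB induces, so the higher share may come from that choice. A gene with several windows also has more chances of a match. A match describes the letters in the window and is not a measured binding site.

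The FPKM (fragments per kilobase of gene length, scaled to the fragments of the sample, a level that can be compared between genes) referred to between 16306447 and 18853726 fragments per sample, with no difference between groups beyond the spread (exact permutation test, two-sided, p = 0.373). Between 95.5% and 97.9% of these fragments lay in listed genes in CD8+4T1, and between 89.8% and 92.1% in CD8+4T1+NaAc. CD8+4T1+NaAc replicate 1 had the fewest detected genes (20233 above 0 FPKM, where the other samples had 22291 to 25088), and values without it are given where it decides a result. The defining T cell markers were present in every sample: the summed level of 15 T cell markers was 1245 to 1376 FPKM in CD8+4T1 and 1098 to 1271 FPKM in CD8+4T1+NaAc. Of the 15, 7 fell and 1 rose as deposited (median log2 fold change -0.18), and 5 fell and 4 rose after rescaling to the same total. Cd8a was not called (log2 fold change -0.04, limma adjusted p = 0.559). The summed level of 20 epithelial and 4T1 markers was 105 to 131 FPKM without and 211 to 391 FPKM with NaAc. Of the 13 tested, 10 rose and 1 fell as deposited (median log2 fold change 2.77), and 10 rose and 0 fell after rescaling to the same total. The keratin Krt8, named after its values were seen, went from 1.77 to 5.66 FPKM without NaAc to 19.96 to 53.5 FPKM with NaAc. All 10 members can be transcribed in tumor cells as well as T cells, and the part of tumor cell RNA in their values was not tested.

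NaAc was accompanied by small changes of the NF-kB genes, in both directions. Nfkb1, Nfkb2 and Rela fell, Tnfaip3 rose, and the other 6 members did not pass the test; the calls of Nfkb2 and Rela, but not those of Nfkb1 and Tnfaip3, were lost when the samples were scaled in 2 other ways. Of the 10 members, 4 were called at a limma adjusted p under 0.05, 1 higher and 3 lower, and for the same 4 genes the samples of the groups did not overlap. Over all 15710 genes tested, 36.5% were called (17.6% higher and 19.0% lower), and the groups did not overlap for 26.4%, so the share of members called is close to that of all genes. The median log2 fold change of the members was -0.14, against -0.02 over all genes tested. The largest member change, that of Tnfaip3, was larger in size than those of 65.1% of the genes tested. All 4 calls held whichever single sample was left out (10 fits), with log2 fold changes of -0.39 to -0.32 for Nfkb1, -0.25 to -0.22 for Nfkb2, -0.24 to -0.17 for Rela and 0.34 to 0.43 for Tnfaip3.

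**Figure D1:**
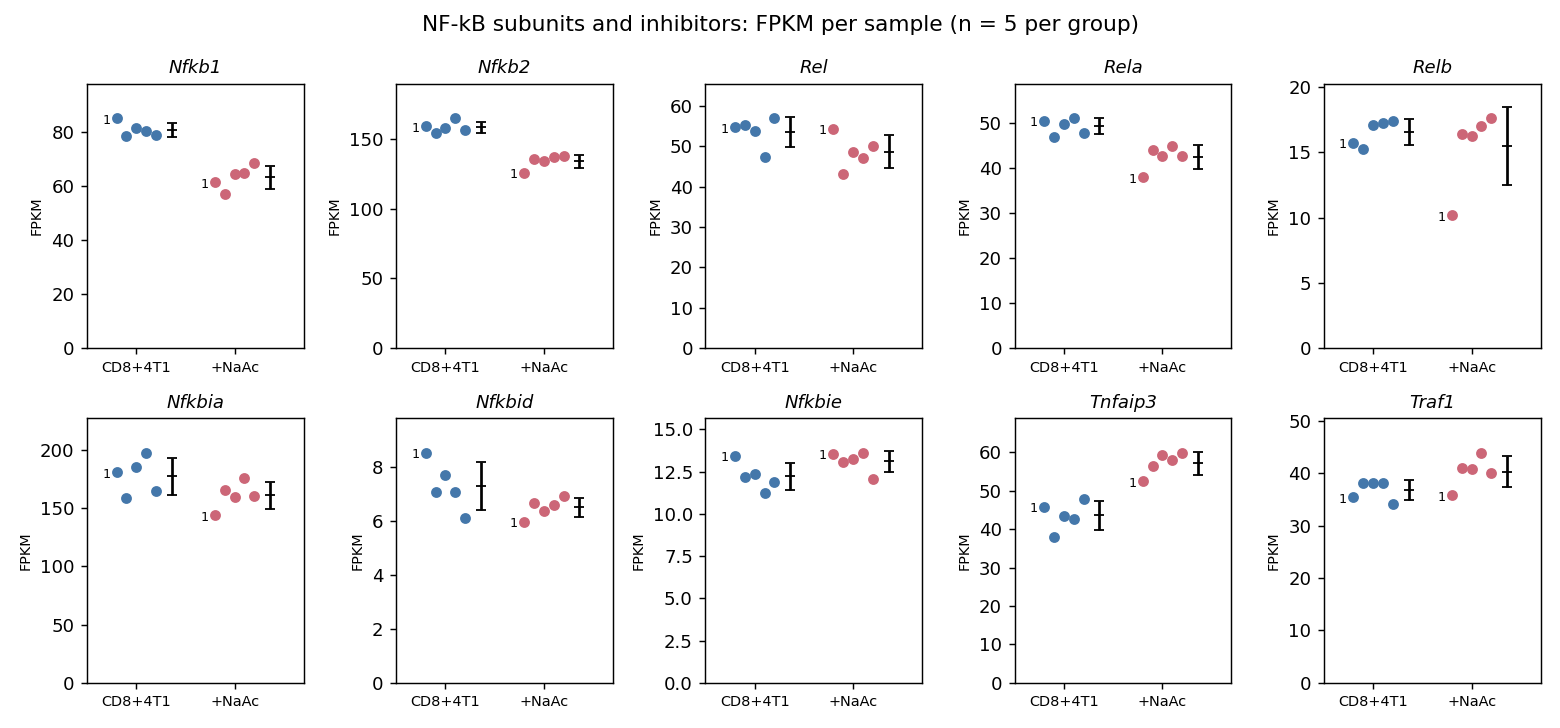
FPKM of each member in each sample (y axis, from 0), with the 5 CD8+4T1 samples on the left and the 5 CD8+4T1+NaAc samples (+NaAc) on the right of each panel; points run from replicate 1 (marked 1) to 5, and bars give the mean ± SD. The groups do not overlap for Nfkb1, Nfkb2 and Rela, which were lower with NaAc, and for Tnfaip3, which was higher; Relb of CD8+4T1+NaAc replicate 1 lies at 10.2 FPKM, below the other 9 samples.

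Among the subunits, Nfkb1 showed the largest change. Nfkb1 (ENSMUSG00000028163; listed on chromosome 3 from 135290416 to 135397308, reverse strand) encodes p105, the precursor of p50. Nfkb1 was at 85.0, 78.4, 81.2, 80.1 and 78.9 FPKM in CD8+4T1 replicates 1 to 5 and at 61.3, 57.0, 64.3, 64.5 and 68.3 FPKM in CD8+4T1+NaAc replicates 1 to 5. All 5 samples with NaAc were below all 5 without. The mean went from 80.7 ± 2.63 FPKM without to 63.1 ± 4.19 FPKM with NaAc (SD, n = 5 each), a change of -21.9% (log2 fold change -0.36, standard error 0.05, limma adjusted p = 0.000481), on 12636 to 17123 fragments per sample. A transcript of unknown type, Gm43430, overlaps Nfkb1 on the same strand and stood at a mean of 1.10 FPKM.

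Nfkb2 (ENSMUSG00000025225; listed on chromosome 19 from 46292759 to 46300824, forward strand) encodes p100, which acts as an inhibitor until it is cut to p52, and its promoter window holds the paired kappaB matches shown above. Nfkb2 was at 159, 154, 157, 165 and 156 FPKM in CD8+4T1 replicates 1 to 5 and at 126, 135, 134, 137 and 137 FPKM in CD8+4T1+NaAc replicates 1 to 5. Again no sample with NaAc reached the lowest sample without. The mean went from 158 ± 4.06 FPKM to 134 ± 4.72 FPKM (SD, n = 5 each), a change of -15.4% (log2 fold change -0.24, standard error 0.04, limma adjusted p = 0.00143). Nfkb2 overlaps Psd by 299 bases and the long non-coding 4833438C02Rik by 1317 bases on the opposite strand (mean 30.5 and 4.33 FPKM), and since the strand setting of the counting is not given in the sources used here, reads of these genes may not be told apart in the overlap.

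Rela (ENSMUSG00000024927; listed on chromosome 19 from 5687511 to 5698158, forward strand) encodes RelA or p65, the main transactivating subunit of the canonical arm, and its window showed no kappaB match. Rela was at 50.4, 46.9, 49.8, 51.0 and 47.8 FPKM in CD8+4T1 replicates 1 to 5 and at 37.9, 44.0, 42.6, 44.9 and 42.7 FPKM in CD8+4T1+NaAc replicates 1 to 5. The lowest sample without NaAc lay above the highest sample with it. The mean went from 49.2 ± 1.76 FPKM to 42.4 ± 2.71 FPKM (SD, n = 5 each), a change of -13.8% (log2 fold change -0.21, standard error 0.05, limma adjusted p = 0.00892).

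Rel (ENSMUSG00000020275; listed on chromosome 11 from 23686847 to 23720970, reverse strand) encodes c-Rel, the subunit best known from activated lymphocytes. Rel was at 54.7, 55.2, 53.8, 47.4 and 57.0 FPKM in CD8+4T1 replicates 1 to 5 and at 54.3, 43.2, 48.7, 47.2 and 50.1 FPKM in CD8+4T1+NaAc replicates 1 to 5. The groups overlapped, with CD8+4T1 replicate 4 among the samples with NaAc and CD8+4T1+NaAc replicate 1 among those without. The mean was 53.6 ± 3.65 FPKM without and 48.7 ± 4.06 FPKM with NaAc (log2 fold change -0.14, standard error 0.07, limma adjusted p = 0.140, 95% confidence interval -0.29 to 0.01). Without CD8+4T1+NaAc replicate 1 the difference passed the test (-0.18, limma adjusted p = 0.0389), but not without replicate 1 of both groups (-0.17, limma adjusted p = 0.0672).

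Relb (ENSMUSG00000002983; listed on chromosome 7 from 19340142 to 19363363, reverse strand) encodes RelB, the non-canonical partner of p52, and had the lowest level of the 5 subunits. Relb was at 15.7, 15.3, 17.1, 17.3 and 17.4 FPKM in CD8+4T1 replicates 1 to 5 and at 10.2, 16.4, 16.3, 17.0 and 17.6 FPKM in CD8+4T1+NaAc replicates 1 to 5. A single sample stood apart, CD8+4T1+NaAc replicate 1, while the other 4 samples with NaAc lay within 16.3 to 17.6 FPKM, inside the range of the samples without it or just above. The mean was 16.6 ± 0.994 FPKM without and 15.5 ± 3.01 FPKM with NaAc (log2 fold change -0.12, standard error 0.13, limma adjusted p = 0.524, 95% confidence interval -0.42 to 0.18). Without that sample the log2 fold change was 0.02 (limma adjusted p = 0.740), so that the direction of the difference rests on it.

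Summed over the 5 subunits, the level as deposited was 350 to 365 FPKM in CD8+4T1 (358 ± 5.51, SD, n = 5) and 289 to 316 FPKM in CD8+4T1+NaAc (304 ± 10.8, SD, n = 5), without overlap. After rescaling to the same total it was 328 to 362 and 308 to 334 FPKM, with overlap, and the log2 difference went from -0.24 to -0.06. Nfkb2 held the largest part of this sum in both groups, 44.2% ± 0.869 without and 44.1% ± 0.933 with NaAc. The part of Nfkb1 was 22.1% to 23.3% without and 19.3% to 21.6% with NaAc, and these ranges did not overlap. Rel held 15.0% and 16.1%, Rela 13.7% and 14.0%, and Relb 4.62% and 5.09% of the sum on average. The differences between these shares were not tested.

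The 3 members of the IkB family, Nfkbia, Nfkbid and Nfkbie, did not pass the test on the deposited scale. Nfkbia (ENSMUSG00000021025; listed on chromosome 12 from 55536195 to 55539432, reverse strand) encodes IkB alpha, the inhibitor that NF-kB replaces soon after activation. Nfkbia was at 181, 159, 185, 198 and 165 FPKM in CD8+4T1 replicates 1 to 5 and at 144, 166, 159.6, 176 and 161 FPKM in CD8+4T1+NaAc replicates 1 to 5. The groups overlapped, and the widest spread was among the samples without NaAc. The mean was 177 ± 15.7 FPKM without and 161 ± 11.5 FPKM with NaAc (log2 fold change -0.14, standard error 0.07, limma adjusted p = 0.172, 95% confidence interval -0.30 to 0.03).

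Nfkbid (ENSMUSG00000036931; listed on chromosome 7 from 30121157 to 30128171, forward strand) encodes IkBNS, a nuclear IkB protein that binds p50 dimers on DNA. It had the lowest level of the 10 members, 6.10 to 8.52 FPKM without (median 7.09) and 5.96 to 6.90 FPKM with NaAc (median 6.60), on 236 to 334 fragments per sample. These ranges overlapped (log2 fold change -0.16, standard error 0.09, limma adjusted p = 0.175, 95% confidence interval -0.35 to 0.03). Without CD8+4T1 replicate 5 the difference passed the test (-0.22, limma adjusted p = 0.0475), and without CD8+4T1 replicate 1 it was -0.10 (limma adjusted p = 0.350). Nfkbie (ENSMUSG00000023947; listed on chromosome 17 from 45866629 to 45874095, forward strand) encodes IkB epsilon, a cytoplasmic inhibitor that holds c-Rel and RelA dimers. It stood at 11.2 to 13.4 FPKM without and 12.04 to 13.6 FPKM with NaAc. Its difference was positive, unlike those of Nfkbia and Nfkbid, but did not pass the test (log2 fold change 0.10, standard error 0.06, limma adjusted p = 0.193, 95% confidence interval -0.02 to 0.23).

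Tnfaip3 was the member that rose. Tnfaip3 (ENSMUSG00000019850; listed on chromosome 10 from 18876658 to 18891405, reverse strand) encodes A20, a ubiquitin-editing enzyme that ends signalling from TNF and antigen receptors and is cut by the protease MALT1 in stimulated T cells. Tnfaip3 was at 45.8, 37.9, 43.6, 42.7 and 47.9 FPKM in CD8+4T1 replicates 1 to 5 and at 52.5, 56.3, 59.2, 58.0 and 59.9 FPKM in CD8+4T1+NaAc replicates 1 to 5. The lowest sample with NaAc lay above the highest without. The mean went from 43.6 ± 3.76 FPKM without to 57.2 ± 2.95 FPKM with NaAc (SD, n = 5 each), 1.31-fold on the log2(FPKM + 0.1) scale (log2 fold change 0.39, standard error 0.07, limma adjusted p = 0.000960), on 4779 to 7676 fragments per sample. Nfkb2 and Tnfaip3 both carry a pair of kappaB matches in the windows shown above, and their differences have opposite signs.

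Traf1 (ENSMUSG00000026875; listed on chromosome 2 from 34831762 to 34851784, reverse strand) encodes an adaptor of TNF receptor family signalling that binds TRAF2 and is kept up by NF-kB in activated T cells. Traf1 was at 35.4, 38.1, 38.1, 38.2 and 34.1 FPKM in CD8+4T1 replicates 1 to 5 and at 35.8, 41.0, 40.9, 43.9 and 40.2 FPKM in CD8+4T1+NaAc replicates 1 to 5. Only CD8+4T1+NaAc replicate 1 lay within the range of the samples without NaAc, and the other 4 lay above it. The mean was 36.8 ± 1.89 FPKM without and 40.4 ± 2.90 FPKM with NaAc (log2 fold change 0.13, standard error 0.06, limma adjusted p = 0.111, 95% confidence interval -0.00077 to 0.26). Without CD8+4T1+NaAc replicate 1 the difference passed the test (0.17, limma adjusted p = 0.0148), as it did without replicate 1 of both groups (0.16, adjusted p = 0.0293).

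The calls of Nfkb2 and Rela depended on the scaling of the samples. Scaling each sample by its median ratio to the gene means left the median difference over all genes at -0.01 and kept both calls. Nfkb2 then stood at -0.24 (limma adjusted p = 0.00162) and Rela at -0.21 (limma adjusted p = 0.00961). The 2 scalings that follow did not keep them. Rescaling every sample to the same total FPKM moved the median difference over all genes from -0.02 to 0.15, and scaling to the T cell markers also moved it to 0.15. Under these scalings 77.9% and 78.2% of all called genes were higher with NaAc, against 48.1% as deposited. Nfkb1 still fell (-0.18 and -0.19, limma adjusted p = 0.0399 and limma adjusted p = 0.0258). Tnfaip3 still rose (0.57 and 0.56, limma adjusted p = 0.000124 and limma adjusted p = 0.000146). Nfkb2 and Rela no longer passed the test, with -0.06 (limma adjusted p = 0.273) and -0.07 (limma adjusted p = 0.300) for Nfkb2 and -0.04 under both (limma adjusted p = 0.621 and limma adjusted p = 0.583) for Rela. In turn Traf1 (0.31, limma adjusted p = 0.00145, and 0.30, limma adjusted p = 0.00161) and Nfkbie (0.28, limma adjusted p = 0.00981, and 0.27, limma adjusted p = 0.0294) passed it, so that 3 members were higher and 1 lower. A scaling moves every gene of a sample by the same factor, so that relative to the median of all genes the differences stay nearly the same by construction: after rescaling to the same total they were -0.33 for Nfkb1, -0.22 for Nfkb2, -0.19 for Rela and 0.42 for Tnfaip3.

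**Figure D2:**
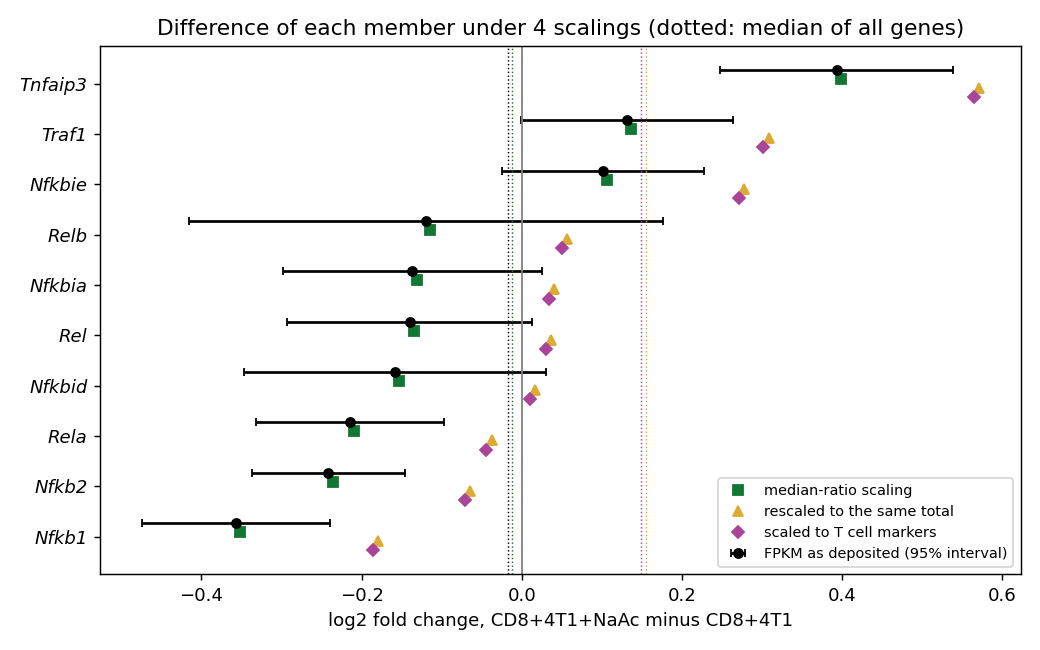
Log2 fold change of each member (x axis, CD8+4T1+NaAc minus CD8+4T1) with the FPKM as deposited (black points, bars give the 95% confidence interval from limma) and under 3 other scalings (colored symbols); dotted lines give the median of all 15710 genes tested under each scaling. A scaling shifts all members together, so their order is fixed; Nfkb1 was called lower and Tnfaip3 higher under all 4 scalings.

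Ratios between members within a sample do not move with the scaling, and 6 of them were compared with exact permutation tests (two-sided, 5 against 5 samples, smallest possible p = 0.00794, Benjamini-Hochberg adjustment over the 6). The log2 ratio of Tnfaip3 to Rela, the terminator to the main transactivator, was -0.138, -0.307, -0.193, -0.254 and 0.00512 without and 0.469, 0.355, 0.474, 0.368 and 0.488 with NaAc. Every sample with NaAc was above every sample without. Tnfaip3 thus went from 0.884 times to 1.35 times the level of Rela, a 1.52-fold change of the ratio (exact permutation p = 0.00794, adjusted p = 0.0238). The groups already stood apart for each of these 2 genes, in opposite directions. The separation of their ratio and its p follow from that and are no further support. The log2 ratio of Traf1 to Nfkbia moved from -2.26 ± 0.12 to -1.996 ± 0.02 (SD, n = 5 each), also without overlap, a 1.20-fold change (exact permutation p = 0.00794, adjusted p = 0.0238). Its 5 values with NaAc lay between -2.02 and -1.96, a narrower spread than that without NaAc (-2.37 to -2.05).

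The ratio of the precursors Nfkb2 and Nfkb1 rose slightly, from 1.96 to 2.12 (log2 ratio 0.97 ± 0.05 to 1.09 ± 0.09, SD, n = 5 each; exact permutation p = 0.0238, adjusted p = 0.0476), with overlap between the groups. With each sample left out in turn this difference was between 0.076 and 0.14 on the log2 scale, with an exact unadjusted p between 0.0159 and 0.0476, and the lowest value was that without CD8+4T1+NaAc replicate 2. Without replicate 1 of both groups it no longer passed (0.11, exact permutation p = 0.0571). The remaining 3 ratios did not pass: Relb to Rela (difference 0.10 on the log2 scale, exact permutation p = 0.444, adjusted p = 0.533), Rel to Rela (0.07, exact p = 0.548, adjusted p = 0.548; -0.0056 without CD8+4T1+NaAc replicate 1) and Nfkbia to Rela (0.08, exact p = 0.0873, adjusted p = 0.131). Relb to Rela was lowest in CD8+4T1+NaAc replicate 1 (-1.88), below all other samples, and without that sample the difference was 0.20 (exact permutation p = 0.0159).

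**Figure D3:**
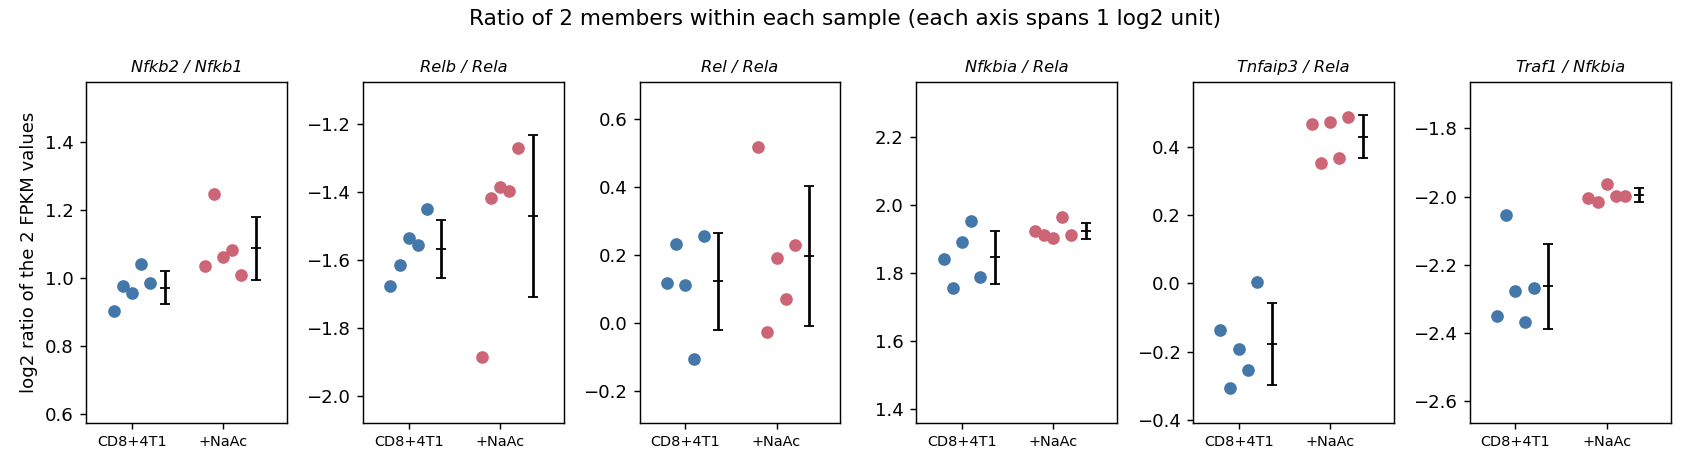
Log2 ratio of the FPKM of 2 members within each sample (y axis, each panel spans 1 log2 unit but is centred on its own values), with CD8+4T1 on the left and CD8+4T1+NaAc (+NaAc) on the right; points run from replicate 1 to 5 and bars give the mean ± SD. The groups stand apart for Tnfaip3 / Rela and Traf1 / Nfkbia and overlap for the other 4 ratios.

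In order of level, Nfkbia (177 FPKM) and Nfkb2 (158 FPKM) led in CD8+4T1, followed by Nfkb1, Rel, Rela, Tnfaip3, Traf1, Relb, Nfkbie and Nfkbid. The ranges of Nfkbia and Nfkb2 overlapped over the 5 samples, as did those of Rel and Rela, of Rela and Tnfaip3, and of Tnfaip3 and Traf1, while all other neighbours stood apart. With NaAc, Tnfaip3 moved from place 6 to place 4, above Rel and Rela, and the order of the other members stayed as it was. In that group the neighbours from Nfkb1 down to Traf1 overlapped, as did Relb and Nfkbie, and the remaining neighbours stood apart.

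Within groups, some members varied together from sample to sample. After each group's mean was taken away, Rela and Nfkbia had r = 0.898 and rho = 0.915 over the 10 samples (exact permutation within groups, two-sided, p = 0.000208 and 0.000764, adjusted p = 0.00938 and 0.0344 over the 45 pairs of members), and r = 0.877 without the 2 samples farthest from the median. Nfkb2 correlated with Rela (r = 0.909, exact p = 0.00201, adjusted p = 0.0302) and with Nfkbia (r = 0.858, exact p = 0.00188, adjusted p = 0.0302), and without the 2 farthest samples r was 0.809 and 0.765. For these 2 pairs the rank correlation, rho = 0.794 for both, missed the threshold (exact p = 0.00771 and 0.0106, adjusted p = 0.0867 and 0.0956). Rel ran the other way, with r = -0.775 against Rela and r = -0.774 against Nfkbia, which did not pass the adjustment (exact p = 0.0192 and 0.0124, adjusted p = 0.168 and 0.140). The levels of a sample share its scaling, and its part in these correlations was not tested.

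Across all 10 samples, group difference included, the protein-coding gene most like each member in its log2 level (of 7043 genes whose mean reached 5 FPKM) was Ercc5 for Nfkb1 (r = 0.988), Ccdc43 for Nfkb2 (0.988), Nsd1 for Rel (0.944), Agpat3 for Rela (0.978) and Nmt1 for Relb (0.991). For the inhibitors these were Ppp1r15a for Nfkbia (r = 0.947), Pde8a for Nfkbid (0.952), Strn3 for Nfkbie (0.902), Klf4 for Tnfaip3 (0.964) and Bckdha for Traf1 (0.953). These values describe the samples and were not tested.

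The other genes of the pathway were read from the same fit. Of 12 further inhibitors of the IkB and A20 families, 4 passed the test, 1 higher and 3 lower, with a median log2 fold change of -0.06. Nfkbib, which encodes IkB beta, fell, with 79.0 ± 6.11 FPKM in CD8+4T1 and 65.3 ± 0.940 FPKM in CD8+4T1+NaAc (log2 fold change -0.27, standard error 0.05, limma adjusted p = 0.00276). Itch, which encodes a ubiquitin ligase that works with A20, fell as well, with 9.43 ± 0.784 FPKM in CD8+4T1 and 7.60 ± 0.4998 FPKM in CD8+4T1+NaAc (log2 fold change -0.31, standard error 0.07, limma adjusted p = 0.00643). Otulin, which encodes a deubiquitinase for linear chains, passed narrowly, with 90.6 ± 3.28 FPKM in CD8+4T1 and 81.0 ± 6.30 FPKM in CD8+4T1+NaAc (log2 fold change -0.16, standard error 0.06, limma adjusted p = 0.0490). The gene that rose was Tnip3, which encodes an A20-binding inhibitor and was named after its values were seen, at 0.481 ± 0.0774 FPKM in CD8+4T1 and 0.956 ± 0.173 FPKM in CD8+4T1+NaAc (log2 fold change 0.86, standard error 0.20, limma adjusted p = 0.00579). Under rescaling to the same total and to the T cell markers, 4 genes of this list were called, all higher.

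Of 26 kinases and adaptors that lead from receptors to NF-kB, 10 passed the test, 2 higher and 8 lower (median log2 fold change -0.01). Bcl10, which encodes an adaptor between antigen receptors and the IkB kinase, fell, with 20.1 ± 0.883 FPKM in CD8+4T1 and 14.9 ± 0.879 FPKM in CD8+4T1+NaAc (log2 fold change -0.43, standard error 0.05, limma adjusted p = 0.000161). The ubiquitin ligase gene Birc3, itself an NF-kB target, fell, with 11.9 ± 0.697 FPKM in CD8+4T1 and 8.34 ± 0.788 FPKM in CD8+4T1+NaAc (log2 fold change -0.51, standard error 0.07, limma adjusted p = 0.000387), and so did Ube2n, which encodes the enzyme that makes a ubiquitin chain used in this signal, with 35.4 ± 1.31 FPKM in CD8+4T1 and 25.3 ± 4.19 FPKM in CD8+4T1+NaAc (log2 fold change -0.49, standard error 0.10, limma adjusted p = 0.00254). Traf5, an adaptor gene called higher, was named after its values were seen (log2 fold change 0.38, limma adjusted p = 0.0495). Under the same total the split was 11 higher and 4 lower, and under the T cell markers 9 higher and 3 lower.

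Of 15 receptors that feed NF-kB, 9 passed the test, 5 higher and 4 lower (6 higher and 3 lower under both of these scalings). Both TNF receptors rose: Tnfrsf1a stood at 8.90 ± 0.728 FPKM in CD8+4T1 and 14.5 ± 2.22 FPKM in CD8+4T1+NaAc (log2 fold change 0.69, standard error 0.10, limma adjusted p = 0.000493) and Tnfrsf1b at 40.7 ± 1.38 FPKM in CD8+4T1 and 64.0 ± 8.19 FPKM in CD8+4T1+NaAc (log2 fold change 0.64, standard error 0.08, limma adjusted p = 0.000219). The lymphotoxin beta receptor gene Ltbr, a non-canonical receptor known mainly from stromal and myeloid cells, stood at 2.25 ± 0.312 FPKM in CD8+4T1 and 5.29 ± 1.44 FPKM in CD8+4T1+NaAc (log2 fold change 1.16, standard error 0.18, limma adjusted p = 0.000587). The costimulatory receptor gene Icos fell, with 77.0 ± 12.4 FPKM in CD8+4T1 and 50.4 ± 5.10 FPKM in CD8+4T1+NaAc (log2 fold change -0.60, standard error 0.11, limma adjusted p = 0.00141). With NaAc, Ltbr and Tnfrsf1a rose together with the epithelial and 4T1 marker sum, whose part in these differences was not tested.

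Of 30 tested NF-kB target genes used in T cells, 16 passed, 4 higher and 12 lower (median log2 fold change -0.10), with 8 higher and 9 lower under the same total and 7 higher and 9 lower under the T cell markers. The chemokine gene Ccl5 rose, with 48.9 ± 6.75 FPKM in CD8+4T1 and 154 ± 33.5 FPKM in CD8+4T1+NaAc (log2 fold change 1.63, standard error 0.16, limma adjusted p = 5.29e-05), and the early response gene Ier3 rose too, with 33.8 ± 3.15 FPKM in CD8+4T1 and 87.0 ± 18.3 FPKM in CD8+4T1+NaAc (log2 fold change 1.34, standard error 0.13, limma adjusted p = 5.01e-05). Lta, which encodes lymphotoxin alpha, fell most, with 148 ± 13.4 FPKM in CD8+4T1 and 59.5 ± 12.6 FPKM in CD8+4T1+NaAc (log2 fold change -1.33, standard error 0.13, limma adjusted p = 3.84e-05). Bcl2a1d, a survival gene of a family of near-identical copies whose single values are uncertain, fell, with 206 ± 9.29 FPKM in CD8+4T1 and 131 ± 7.88 FPKM in CD8+4T1+NaAc (log2 fold change -0.65, standard error 0.06, limma adjusted p = 2.42e-05). Of 14 tested NF-kB target genes typical of epithelial or stromal cells, 12 passed and all 12 were higher, also under both scalings, with a median log2 fold change of 1.85. The colony-stimulating factor gene Csf3 stood at 10.2 ± 3.02 FPKM in CD8+4T1 and 104 ± 43.4 FPKM in CD8+4T1+NaAc (log2 fold change 3.29, standard error 0.29, limma adjusted p = 3.48e-05). Lcn2, which encodes the iron-binding protein lipocalin 2, was at 3.99 ± 1.47 FPKM in CD8+4T1 and 40.2 ± 16.4 FPKM in CD8+4T1+NaAc (log2 fold change 3.28, standard error 0.32, limma adjusted p = 5.33e-05). The neutrophil-attracting chemokine gene Cxcl5 stood at 4.45 ± 1.46 FPKM in CD8+4T1 and 42.9 ± 13.1 FPKM in CD8+4T1+NaAc (log2 fold change 3.25, standard error 0.27, limma adjusted p = 2.63e-05) and Cxcl1 at 4.13 ± 1.63 FPKM in CD8+4T1 and 37.5 ± 15.7 FPKM in CD8+4T1+NaAc (log2 fold change 3.16, standard error 0.33, limma adjusted p = 8.10e-05). These genes moved with the epithelial and 4T1 markers (median log2 fold change 2.77), of which Lcn2 is itself a member. The part of tumor cell RNA was not tested.

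**Figure D4:**
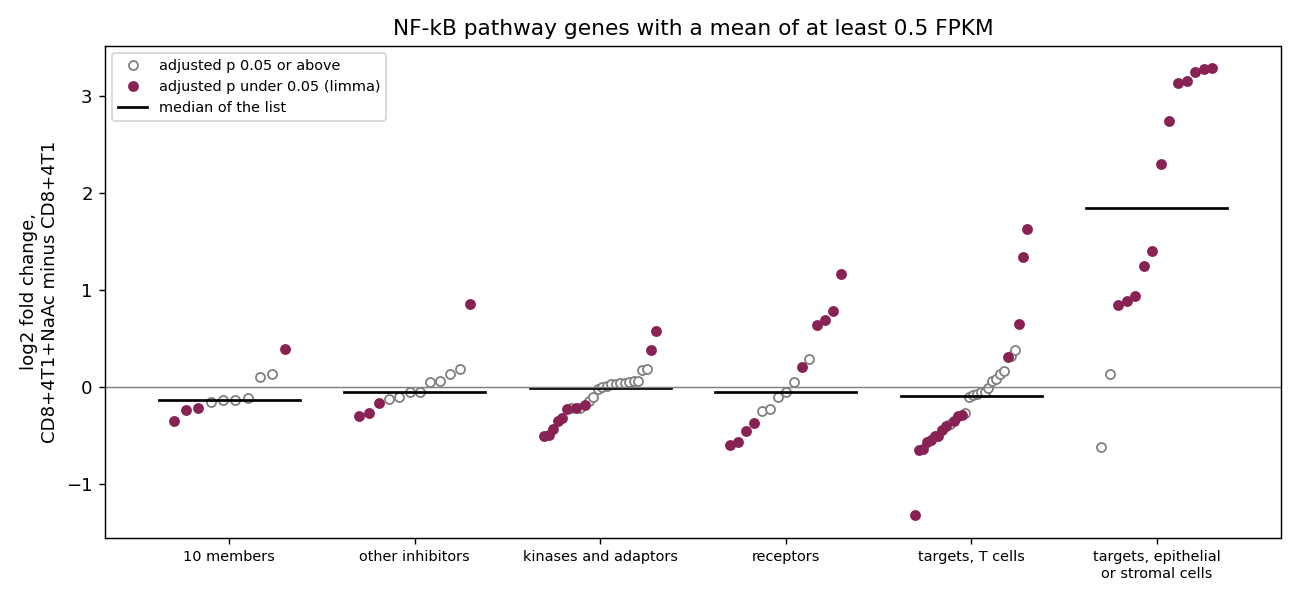
Log2 fold change (y axis, CD8+4T1+NaAc minus CD8+4T1) of the 10 members and of the tested genes of 5 lists of the NF-kB pathway, ordered by value within each list; filled points passed the test (limma adjusted p under 0.05) and black lines give the list medians. The members span -0.36 to 0.39 around a median of -0.14, while the targets typical of epithelial or stromal cells have a median of 1.85.

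The marker lists of other cells were summed in the same way. The B cell markers summed to 4.33 to 5.32 FPKM without and 5.19 to 6.69 FPKM with NaAc. Cd79b stood at 3.58 and 4.64 FPKM and Cd79a at 0.961 and 1.06 FPKM on average. As deposited, neither of the 2 tested was called. Under rescaling to the same total and to the T cell markers, 1 of them was called higher. The same count was found with the replicate block and without replicate 1 of both groups. The macrophage and dendritic cell markers summed to 26.3 to 35.97 and 27.3 to 31.3 FPKM, most of it Cd68 (25.8 and 22.8 FPKM), with Cd14 at 3.21 and 3.89 FPKM and C1qb at 0 in every sample; of the 4 tested, 1 was called, Lyz2, at 0.536 and 1.12 FPKM. The 5 NK cell markers summed to 9.59 to 11.01 and 12.5 to 14.5 FPKM, mostly through Eomes (9.46 and 12.7 FPKM), which CD8+ T cells also express, while Klre1 stood at 0.757 and 0.850 FPKM; of the 2 tested, Eomes was called higher. The 5 CD4 T cell markers summed to 53.4 to 60.2 and 53.4 to 63.4 FPKM, led by Ctla4 (41.9 and 43.8 FPKM) and Zbtb7b (13.5 and 12.4 FPKM), while Cd4 itself stood at 0.541 and 1.60 FPKM and was the 1 called, higher, of 4 tested. Lyz2 and Cd4 were named after their values were seen. The T cell markers of highest level, Thy1 (205 and 191 FPKM) and Cd8b1 (147 and 167 FPKM), were not called, although 8 of the 15 in that list were. Of the epithelial and 4T1 list, Cd24a (43.6 and 49.9 FPKM) rose and Lgals7 (33.6 and 26.3 FPKM) fell as deposited. Under rescaling to the same total and to the T cell markers, 10 genes of that list were called higher and 0 lower.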

How the data were processed

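RNA of 10 samples of CD8+ T cells was sequenced. The authors deposited FPKM per gene and sample, which were not pooled, with the gene length, an other, unnormalized column. The submitters' processing notes name fastp, HISAT2 2.0.5, StringTie 1.3.3b and featureCounts 1.5.0-p3; the genome build, annotation and strand setting are not given in the sources used here. Gene positions are those of the deposited table, and promoter windows come from RefSeq (GRCm38.p6), another set of positions. FPKM times length gave whole fragments for 100% of values (within 0.1), at 16306447 to 18853726 fragments per sample, which limits the precision of low levels.

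Since FPKM are not counts, log2(FPKM + 0.1) of the 15710 of 57825 genes whose mean reached 0.5 FPKM was compared with limma 3.58.1 (variance trend, robust moderation) in R 4.3.3, with Benjamini-Hochberg adjustment over all genes tested and calls at 0.05; this scale makes the changes of low genes look smaller than they are. The fit was first tested on simulated data. Ratios, fragments and correlations were compared with exact permutation tests (scipy 1.17.1). Groups and replicate numbers came from the labels. The alternatives were other pseudocounts (1 and 0.01), filters, scalings, limma settings, voom on the recovered fragments, the replicate block, protein-coding genes alone, an adjusted p under 0.01, and samples left out. Beside the members, the genes named are, of each pathway list, up to 4 with the largest change among those called at a mean of at least 1 FPKM, the 2 highest genes of each marker list and the gene most like each member; others are marked as named after their values were seen, and 1 gene is counted in its list but not reported here by itself. The members and lists were chosen with earlier results of these data known. The correlations between members and the scalings of the summed subunit level were added after the data were seen. Figures were drawn with matplotlib 3.10.9. No columns of the authors' own comparisons were used.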

Additional observations from a re-analysis of the deposited data

Results flagged for a closer look

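In 3 of the 32 groups of 5 values checked (levels of the members and their ratios), 1 sample lay far from the others, with a gap to its nearest neighbour above 0.71 of the group's range; chance flags about 1 in 20 groups, or 1.6 here. All 3 concern the lowest value of CD8+4T1+NaAc replicate 1: the log2 level of Nfkb2 (gap 0.75 of the range), that of Relb (0.852) and the log2 ratio of Relb to Rela (0.759). Nfkb2 stood at 126 FPKM there against 134 to 137 FPKM in the other 4 samples of the group, Relb at 10.2 against 16.3 to 17.6 FPKM, and the ratio at -1.88 against -1.42 to -1.27. This sample also had the fewest genes above 0 FPKM of all 10 samples (20233). Without it the fall of Nfkb2 remained called (-0.22, limma adjusted p = 0.000723), while Relb had a log2 fold change of 0.02. The cause of its distance was not tested.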

How the results depend on the processing

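Nfkb1 and Tnfaip3 kept their direction and their call in all 24 alternatives, and Nfkb2 and Rela in 22 of them. The number of members called stayed between 4 and 6, and that of the other pathway genes between 39 and 56 (49 as reported, 24 higher and 25 lower). Rescaling to the same total gave 3 members higher and 1 lower and 41 other pathway genes higher and 14 lower; scaling to the T cell markers gave 3 and 1, and 38 and 13. Under these scalings Nfkb2 (-0.06 and -0.07) and Rela (-0.04 under both) lost their calls, and the sign turned for Rel (0.037 and 0.031), Relb (0.057 and 0.050), Nfkbia (0.041 and 0.034) and Nfkbid (0.017 and 0.011), members that were not called under any of these scalings. Sample weights gave 2 members higher, with Rel (-0.16) and Traf1 (0.16) called and 7594 genes called in all, against 5742. A mean of at least 5 FPKM gave 3733 genes called, an adjusted p under 0.01 gave 3702, and voom on the recovered fragments gave 5976, with 4 members called.

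With each sample left out in turn, 4 to 6 members were called, 1 to 2 of them higher, and 31.5% to 44.3% of all genes tested, both at their highest without CD8+4T1+NaAc replicate 1. Relb ranged from -0.17 to 0.024; Nfkbid was called without CD8+4T1 replicate 5 (-0.22). The log2 ratios ranged from 0.045 to 0.20 for Relb to Rela, from -0.0056 to 0.13 for Rel to Rela and from 0.055 to 0.10 for Nfkbia to Rela, the last with an exact p = 0.0159 without CD8+4T1 replicate 4. Without replicate 1 of both groups, 2 members were higher, Relb stood at 0.0059, and the differences of the ratios were 0.17 for Relb to Rela (exact permutation p = 0.0286), -0.0067 for Rel to Rela and 0.11 for Nfkb2 to Nfkb1 (exact p = 0.0571). The cause of these shifts was not tested.

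The deviations of same-numbered samples correlated with r between -0.0283 and 0.0694 across genes, which gives no sign of a pairing by number. Whether same-numbered samples were handled together is not stated in the sources used here. With the replicate block 4 members (1 higher, 3 lower) and 5399 genes were called. For the ratios, the smallest p the block allows is 0.0625, which the exact test gave for Nfkb2 to Nfkb1 (0.12), Nfkbia to Rela (0.078), Tnfaip3 to Rela (0.61) and Traf1 to Nfkbia (0.27). The members with the fewest fragments per sample are Nfkbid (236 to 334), Nfkbie (564 to 751) and Relb (677 to 1202).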

Other observations

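Further genes of the pathway lists passed the limma test at an adjusted p under 0.05, and the following were picked after their values were seen, with the mean level without and with NaAc. Among the genes between receptors and NF-kB, Traf6 (16.5 and 12.96 FPKM, log2 fold change -0.35), Traf2 (12.6 and 10.8 FPKM, log2 fold change -0.22), Birc2 (33.8 and 28.7 FPKM, log2 fold change -0.23), Tbk1 (19.6 and 17.3 FPKM, log2 fold change -0.18) and Malt1 (16.5 and 13.2 FPKM, log2 fold change -0.32) were lower; they encode ubiquitin ligases and adaptors, a kinase and the protease that cuts A20. These values are on the deposited scale, and under rescaling to the same total 4 genes of that list were lower and 11 higher. Among the T cell targets, the costimulatory receptor gene Tnfrsf9 (481 and 324 FPKM, log2 fold change -0.57), the transcription factor gene Irf4 (105 and 72.1 FPKM, log2 fold change -0.55), the stress gene Gadd45b (116 and 85.2 FPKM, log2 fold change -0.44), the survival gene Cflar (20.8 and 14.6 FPKM, log2 fold change -0.51), the adhesion gene Icam1 (58.6 and 45.8 FPKM, log2 fold change -0.36), the lymphotoxin gene Ltb (38.6 and 24.9 FPKM, log2 fold change -0.64) and the IL-2 receptor gene Il2ra (166 and 136 FPKM, log2 fold change -0.30) were lower. The chemokine gene Ccl3 (219.9 and 344 FPKM, log2 fold change 0.65) and the superoxide dismutase gene Sod2 (7.74 and 9.63 FPKM, log2 fold change 0.31) were higher. These values too are on the deposited scale, where 12 of the T cell targets were lower and 4 higher. Under rescaling to the same total 9 were lower and 8 higher, and under the T cell markers 9 were lower and 7 higher. Among the targets typical of epithelial or stromal cells, Ptgs2 (11.3 and 56.9 FPKM, log2 fold change 2.30), Mmp9 (1.45 and 13.9 FPKM, log2 fold change 3.13) and Ccl2 (0.951 and 6.73 FPKM, log2 fold change 2.74) were higher, together with the epithelial and 4T1 markers.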
